A study of Caenorhabditis elegans with 6 samples.

Results

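The regions described here are the entries of the authors' combined list of HAM-1::GFP binding regions that lie on chromosome II of Caenorhabditis elegans. They were chosen by position alone, as every entry whose chromosome is given as II. There are 1258 of them, beside 7172 entries on the other 5 chromosomes, which makes 14.9% of the whole list (95% Wilson interval 14.2 to 15.7%). Chromosome II makes up 15.2% of the nuclear span of 100.2 Mb.

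The worms were hermaphrodites of strain OP102 at the L4 larval stage, grown at 20 °C. They carry the mutation unc-119 (ed3) and the transgene wgIs102, which holds ham-1 fused to the TY1, EGFP and FLAG tags together with an unc-119(+) rescue gene. All samples, ChIP and input alike, share this genotype, so no strain without the fusion protein enters. The strain was made by biolistic transformation and was not outcrossed, per the labels, and whole worms were used, so the regions cannot be assigned to a cell type. Chromatin was crosslinked with 2% formaldehyde and precipitated with an antibody against GFP in 3 ChIP replicates. Another 3 samples are input chromatin, 10% of the lysate, and were not analysed here. Nothing in the labels says that the replicates were separate cultures, so the spread between them may be technical.

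HAM-1 is a winged-helix protein of the STOX family, needed for the asymmetric division of several neuroblasts, in which a precursor cell gives daughters of unequal size and fate. Winged-helix proteins bind DNA, and ChIP-seq with a tagged protein shows where on chromatin it, or a complex that holds it, can be crosslinked. Chromosome II is an autosome. In this species autosomes have a central cluster with low recombination and many conserved, broadly expressed genes, and arms with more recombination, more repeats and more genes of large, fast-evolving families. Worm chromosomes are holocentric, so the centre is not a centromere.

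A region is an interval that the authors' caller placed on genome build WS220, with a number in its name that runs from 1 for the strongest region of a list to the last. That number is called its place. The score deposited beside it stops at 4.04 in the combined list, a value shared by 822 regions of chromosome II (65.3%, against 64.2% of the whole combined list), so it cannot order strong sites. The lists give no read counts, so depth is unknown. The replicate lists held 4610, 4616 and 4585 regions on chromosome II in replicates 1, 2 and 3. Their whole lengths were nearly equal, at 29972, 29980 and 29599 nuclear regions. Counts per Mb are thus shares of lists of similar length, and their SD does not measure variation in the amount of binding. A region was called met by another list that had an overlapping region, by 1 bp or more.

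Regions were scarce in the left part of the chromosome. With chromosome II split into 3 equal parts by midpoint, the combined list had 209 regions in the left part (positions 1 to 5091392), 571 in the central part and 478 in the right part (positions 10182785 to 15274176). These are 41.05, 112.2 and 93.9 regions per Mb. The left part thus held 16.6% of the chromosome's regions (95% Wilson interval 14.7 to 18.8%), the central part 45.4% (42.7 to 48.2%) and the right part 38.0% (35.4 to 40.7%). The intervals allow for counting error alone, while regions near each other may not be independent.

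The single replicates showed the same order of parts. In replicate 1 the densities were 189 per Mb in the left part, 370.04 in the centre and 347 in the right part. In replicate 2 they were 204, 355 and 348, and in replicate 3 they were 191, 382 and 327. The left part was the lowest of the 3 parts in each replicate, and its 3 values did not overlap with those of either other part. The centre and the right part lay closer together, and in replicate 2 they were nearly level, but over the 3 replicates their values did not overlap either. As means the left part had 194 ± 8.18, the centre 369 ± 14.0 and the right part 341 ± 11.7 regions per Mb (SD, n = 3).

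**Figure D1:**
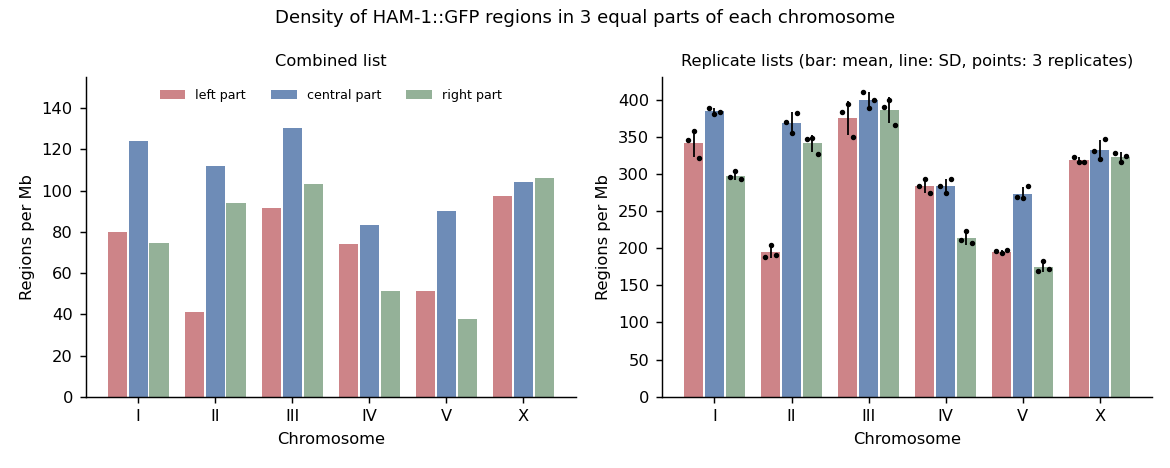
Regions per Mb in the left, central and right part of each chromosome, in the combined list (left panel) and in the replicate lists (right panel, bars are means, lines are SD and points are the 3 replicates). On chromosome II the left part stands at 41.05 per Mb in the combined list and at 194 in the replicate mean, below its central and right parts.

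The lopsided shape set chromosome II apart from the other autosomes in each replicate list. The left part of II had 0.54, 0.58 and 0.58 times the density of the right part in replicates 1, 2 and 3. On the other 4 autosomes pooled, the left part was the denser one, with ratios of 1.14, 1.12 and 1.11. The difference between II and these autosomes was -0.98 ± 0.08 on the log2 scale and had the same sign in 3 of 3 replicates (two-sided exact sign-flip permutation test, p = 0.25). That is the smallest p that 3 replicates allow, so the test cannot reach 0.05. Taken one by one, the mean left-to-right ratio was 1.15 on I, 0.97 on III, 1.33 on IV, 1.12 on V and 0.99 on X. In the combined list it was 0.44 on II and 0.89 to 1.45 on the other chromosomes. A low density was not particular to the left part of II. In the replicate lists both outer parts of chromosome V were as sparse, at 195 ± 1.87 on its left and 175 ± 6.70 regions per Mb on its right (SD, n = 3). In the combined list the right part of V had 37.6 and its left part 51.4 regions per Mb, against 41.05 on the left of II. The comparison of left with right in the replicate lists was chosen after the data were seen.

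The excess in the centre was a smaller contrast. The central part of II had 1.66 times the density of the 2 outer parts in the combined list and 1.38, 1.28 and 1.48 times in replicates 1, 2 and 3. The other 4 autosomes pooled gave 1.55 in the combined list and 1.21, 1.14 and 1.27 in the replicates. The log2 difference was 0.20 ± 0.02 and was above 0 in 3 of 3 replicates (two-sided exact sign-flip permutation test, p = 0.25, the smallest possible). II did not stand above every other autosome. Chromosome V had a larger central excess in each list, with ratios of 2.03 in the combined list and 1.47, 1.42 and 1.53 in the replicates, while I, III and IV lay below II in each list. On II this ratio averages a sparse left part with a right part near the centre's density.

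In steps of 1 Mb the low part of the chromosome reached over its first 4 Mb. These held 37, 36, 37 and 26 combined regions. The next held 61, and each of the 7 after it held 96 to 130. The last 3 full steps, from 12 to 15 Mb, held 63, 83 and 87. The replicate lists had 104 to 210 regions in each of the first 4 steps and 313 to 420 in each of the 7 steps from 5 to 12 Mb. The groups of steps were drawn from these same counts, so the lack of overlap between them is no test. The step from 4 to 5 Mb had 271 to 277 replicate regions. The 3 steps from 12 to 15 Mb had 286 to 376, which overlaps with the values from 5 to 12 Mb. The combined list had fewer regions per replicate region at the left end, as a ratio of counts without matching of regions. For every 100 replicate regions (mean of 3) it listed 20.2 in the first 4 Mb, 30.9 from 5 to 12 Mb and 24.4 from 12 to 15 Mb.

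**Figure D2:**
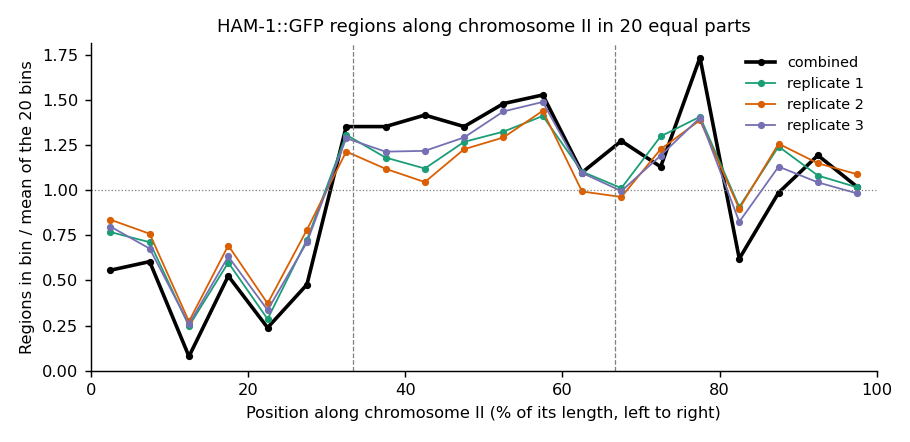
Regions in 20 equal parts of chromosome II, divided by the mean of the 20 parts, for the combined list (black) and each replicate list (colours); dashed lines mark the limits of the left, central and right parts. All 4 lists stay below 1 over the first 6 parts and above 1 in the next 6.

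The left part was scarcer still among strong regions of the replicate lists. Within the first 3000 places it held 17.0%, 18.0% and 18.1% of the chromosome II regions of replicates 1, 2 and 3. From place 22001 onwards it held 24.5%, 26.1% and 21.7%. The mean rose from 17.7% ± 0.61 to 24.1% ± 2.21 (SD, n = 3), and the share was higher at the end of the list than at its start in 3 of 3 replicates. The central excess moved the other way, from a central-to-outer ratio of 1.55 ± 0.10 in the first 3000 places, and 1.82 ± 0.10 over the next places up to the length of the combined list, to 1.11 ± 0.11 from place 22001. The ends of the lists were poorly shared. On II, both other replicates met 95.6% ± 3.22 of regions in the first 3000 places and 34.9% ± 0.84 from place 22001 (SD, n = 3). The part of this in the 2 shifts was not tested. Within the combined list itself the share of the left part hardly moved with strength. In 4 equal groups of the 1258 regions from strong to weak it was 15.9%, 17.5%, 17.8% and 15.3%. The central share did not fall with weaker places there, unlike in the replicate lists, and was 41.3%, 46.5%, 46.7% and 47.1%. In the strongest of these groups the right part held the most regions, 42.9%.

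**Figure D3:**
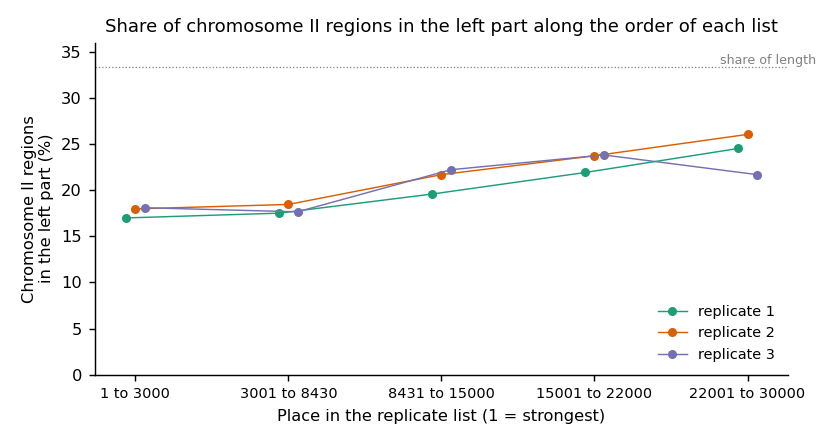
Share of chromosome II regions that lie in the left part, by place in each replicate list; the dotted line marks the share of the chromosome's length. The share is 17.0 to 18.1% within the first 3000 places and 21.7 to 26.1% from place 22001 onwards.

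Agreement between replicates was also lowest in the left part. Merged over the 3 replicate lists, chromosome II had 4927 separate stretches, of which 2015 (40.9%) had a region from every replicate. Over the whole series 39.9% did, and 37.9% (V) to 42.2% (X) on the other chromosomes, so II lay within their range. On II the share was 35.5% in the left part, 45.2% in the centre and 40.0% in the right part. Of the stretches seen in every replicate, the combined list met 55.1% on II (95% Wilson interval 53.0 to 57.3%) and 57.8% over the whole series. On II it met 46.4% in the left part (95% Wilson interval 41.7 to 51.2%), 60.1% in the centre (56.8 to 63.4%) and 54.3% in the right part (50.8 to 57.9%). The interval of the left part lies below that of the centre and overlaps slightly with that of the right part. These intervals allow for counting error alone, and stretches near each other may not be independent, so this is no test. Per single list, 53.4% ± 1.26 of the left regions were met by both other replicates, against 63.8% ± 2.26 in the centre and 58.6% ± 1.20 in the right part (SD, n = 3). The density of regions moves with this agreement, and its part in it was not tested.

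The longest stretch of the chromosome with no combined region lay in the left part and ran 675 kb, from 1520339 to 2195661. It was not empty in the single lists, but sparse. Replicate 1 had 21 regions inside it, replicate 2 had 27 and replicate 3 had 23, or 31.1 to 40.0 per Mb against 301.4 ± 1.08 (SD, n = 3) for the chromosome as a whole. All 3 replicates had a region at 10 sites of this stretch. The best placed, from 1819860 to 1820335 in replicate 2, stood at places 2849, 2502 and 3708 in replicates 1, 2 and 3.

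Each single list also had long gaps within it. Replicate 1 had its longest gap of the chromosome there (288 kb, from 1532132 to 1819892) and another of 203 kb, replicate 2 had one of 235 kb and replicate 3 one of 126 kb.

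The next longest held fewer replicate regions. From 3553857 to 3810588, over 257 kb, replicate 1 had 2 regions, replicate 2 had 0 and replicate 3 had 3. This stretch is near the longest gap of replicate 2 (257 kb) and of replicate 3 (240.1 kb, from 3567968 to 3808091). It still held a fairly strong site near its right edge, from 3808195 to 3808429, at place 727 in replicate 1 and place 2423 in replicate 3, which replicate 2 did not list. The third, from 12426161 to 12659914 in the right part (234 kb), was populated, with 17, 19 and 20 replicate regions. One of them, from 12494565 to 12494781, stood at places 665 and 1064 in replicates 1 and 3 but at 25905 in replicate 2.

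The remaining pair were again on the left. From 873725 to 1084879 (211 kb) each replicate had 3 regions, none better than place 11879, and each replicate list has a gap of 201 to 203 kb there. From 3077301 to 3265643 (188 kb) the lists held 13, 25 and 15 regions, of which the best, from 3245757 to 3246200, stood at place 1860 in replicate 3 and 3204 in replicate 2 and was not listed in replicate 1. Gaps of 100 kb or more numbered 13 on the chromosome, 11 of them in the left part and 0 in the centre, and together they took up 17.2% of its length. On the other chromosomes this share was 4.10% (III) to 34.9% (V).

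In fixed windows of 50 kb the same contrast appeared. Of 306 windows 55 (18.0%) had no combined region. There were 42 such windows among the 102 of the left part (41.2%), 4 of 102 in the centre and 9 of 102 on the right. In 27 of the 55 all 3 replicates still listed a region. In 14 windows no list had any region, and 13 of these lay in the left part. The exception runs from 10100001 to 10150000. The share of empty windows was 11.3% on I, 4.71% on III, 19.1% on IV, 32.7% on V and 11.3% on X.

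The densest window of 50 kb, from 6800001 to 6850000, held 24 combined regions against a mean of 4.11 for the chromosome. The 3 replicates had 49, 44 and 44 regions there, ranking it 1, 3 and 1 among their own windows on II. It was dense in sites of middling strength. The median place was 3886.5, none of the 24 stood within the first 1000 places, and the best, from 6842582 to 6842904, was at place 1071 in the combined list and at 963, 1983 and 476 in the replicates. They lay apart from each other, since merging overlaps left 23 stretches.

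The window from 10500001 to 10550000 came next with 23 entries, but these were only 17 distinct intervals. It ranked 8, 7 and 8 in the replicates. Its best entry, from 10541849 to 10544396, stood at place 225 in the combined list. The third was from 11600001 to 11650000, with 20 entries, 19 distinct intervals and 14 merged stretches, and 4 regions within the first 1000 places. The others were from 5900001 to 5950000 and from 9600001 to 9650000, with 17 each. The former had no region within the first 1000 places and its best stood at place 1861. The latter had 2, of which the region from 9603275 to 9603726 was at place 229. Replicates ranked these last windows differently, at 4, 2 and 23 and at 19, 28 and 2 in replicates 1, 2 and 3.

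Counted by entries, repeats included, the block around 10.5 Mb came first with other window borders. Windows of 20 kb put 22 entries (15 distinct) between 10540001 and 10560000, and windows of 50 kb that start 25 kb later put 28 entries (21 distinct) between 10525001 and 10575000. The 21 distinct intervals are fewer than the 24 of the window from 6800001 to 6850000. The window from 10525001 to 10575000, but not the one of 20 kb, also holds the strongest region of the chromosome.

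That region, from 10563284 to 10563736, stood at place 2 of the combined list and at places 3, 3 and 2 in replicates 1, 2 and 3, and its midpoint in the replicates varied by 4 bp. The next, from 8561171 to 8561582 in the centre, was at combined place 14 and at 27, 13 and 13. The third interval, from 5844532 to 5845202, was at 15 and at 14, 18 and 18. The fourth, from 5543303 to 5544455, was at 43 and at 63, 47 and 28. These 4 sites kept places under 64 in every replicate list.

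Further down, replicates spread more. The region from 10868711 to 10869131 had combined place 57 and replicate places 50, 71 and 157. The region from 8184954 to 8185328 had 61, with 51, 67 and 272. On the left part lay the region from 4376580 to 4377048, at 62 with 114, 58 and 68, and that from 1320449 to 1320830, at 72 with 56, 88 and 156. The remaining 2 of the first 10 entries, at places 81 and 83, repeat the coordinates of the fourth interval and of the third. The first 10 entries are therefore 8 distinct intervals, with 2 in the left part, 4 in the centre and 2 in the right part. How the combined list was made is not stated, so its places were not taken as independent of the replicates' places. Their genes were not assigned, because the gene table used here is on another build.

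**Figure D4:**
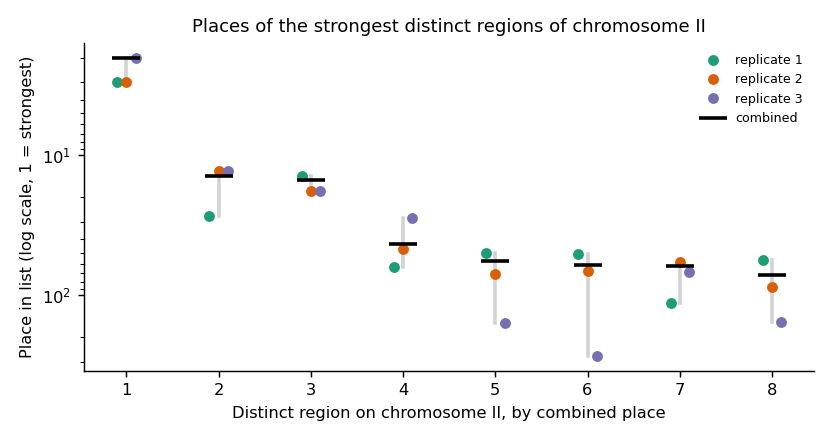
Place of the 8 strongest distinct regions of chromosome II (horizontal axis, by combined place) in each replicate list (coloured points, joined by a grey line) and in the combined list (black bars), on a log axis with 1 at the top. The first 4 keep places under 64 in each list, and the sixth falls to 272 in replicate 3.

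Chromosome II was not rich in strong regions. It held 34 of the first 250 places of the combined list, or 13.6% (95% Wilson interval 9.90 to 18.4%), against its 14.9% of all regions. Put the other way, 2.70% of its regions stood within the first 250 places, where 2.97% of the whole list do, and 11.05% within the first 1000, where 11.9% do. The replicate lists gave 33, 36 and 31 of their first 250 nuclear places. These values differ by less than the counting interval. The median place was 4214 on II and ran from 3964.5 (I) to 4356.5 (X) elsewhere. Between parts of II it was 4148 on the left, 4316 in the centre and 4082.5 on the right. The 139 regions within the first 1000 places fell 21, 56 and 62 on the left, centre and right. In steps of 1 Mb, the one from 11 to 12 Mb held most of these, with 22, and the one from 1 to 2 Mb fewest, with 2.

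The place of a single site could differ widely between replicates. Among the 98 distinct intervals of the first 100 entries on II, the lowest place in a replicate was 2.19 times the highest at the median, with a range of 1.12 to 12.7 times. The widest gap was at 11967477 to 11967866, with replicate places 152, 59 and 751. It was followed by 12102320 to 12102693, with 520, 386 and 94, and by 8569339 to 8569649, with 467, 212 and 1162. Replicate 3 gave the lowest place for 47 of the 98, replicate 1 for 33 and replicate 2 for 18. Across all matched regions of II the places had a Spearman rho of 0.71 for replicates 1 and 2 (2607 matched regions), 0.73 for 1 and 3 (2486) and 0.68 for 2 and 3 (2414). The mean was 0.71 ± 0.03 (SD, 3 pairs that share replicates). It was 0.71 to 0.72 on the other chromosomes, each of which was higher than II by less than this SD. Regions are not independent, and no p is given.

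Some entries of the combined list have identical coordinates. On II, 18 intervals were listed more than once and account for 41 entries, or 3.26% of the chromosome's regions, against 3.04% of the whole list. Counted once, the 1258 entries are 1235 distinct intervals. The repeats were mostly wide, with a median of 673 bp, and 16 of the 18 were wider than the usual 460 bp. Their places often lay far apart. The interval from 6951286 to 6951767, for one, was listed at places 108 and 5869, and the interval from 8028139 to 8028669 at 109 and 5311. The replicate lists had 11, 11 and 4 repeated intervals on II. Overlap without identity was more common. Merging left 1167 stretches, of which 1082 were single entries, 81 held 2, 3 held 3 and 1 held 5.

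The stretch with 5 entries is also the widest interval of the chromosome, 2548 bp from 10541849 to 10544396, at places 225, 2102, 4379, 4816 and 7148. The replicates resolved it differently. Replicate 2 listed 1 interval of 2288 bp, entered 5 times at places 143 to 5850. Replicates 1 and 3 each listed 3 distinct intervals across it, 208 to 1166 bp wide in replicate 1 and 276 to 552 bp wide in replicate 3. The next widest were 1574 bp from 9170551 to 9172124 (place 6049, and listed again) and 1557 bp from 8420026 to 8421582 (place 7580). Both had replicate places no better than 2665, and both cover several replicate regions each. Among the narrowest, at 115 bp, were those from 2800998 to 2801112, from 14488700 to 14488814 and from 7059362 to 7059476, at places 1717, 2335 and 2483. This width was also the minimum on each of the other chromosomes.

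Width followed strength. The usual width of 460 bp was held by 795 regions of II, or 63.2%, against 64.1% of the whole list. Narrower regions made up 31.6%, and 65 (5.17%, against 5.33% of the whole list) were wider. Among the strongest of the 4 groups on II, 79.7% were narrower than 460 bp and 13.3% wider, with a median of 299 bp. Among the weakest group 93.9% had the usual width, 4.14% were narrower and 1.91% wider. The replicate lists had usual widths of 460, 476 and 444 bp, held by 94.7%, 95.2% and 97.1% of their regions on II, and medians of 286, 277 and 261.5 bp within their first 1000 places.

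The replicate midpoints of strong regions lay closer together. Only overlapping regions were compared, so narrower regions leave room for a smaller range, and the part of width in this was not tested. Where all 3 replicates had a region, their midpoints spanned a median of 40 bp in the strongest group, 65.5 and 113 bp in the next 2, and 144.5 bp in the weakest. The 90th percentile went from 109.8 to 373.5 bp. For all of II the median was 76 bp, and it was 72 to 82 bp on the other chromosomes.

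**Figure D5:**
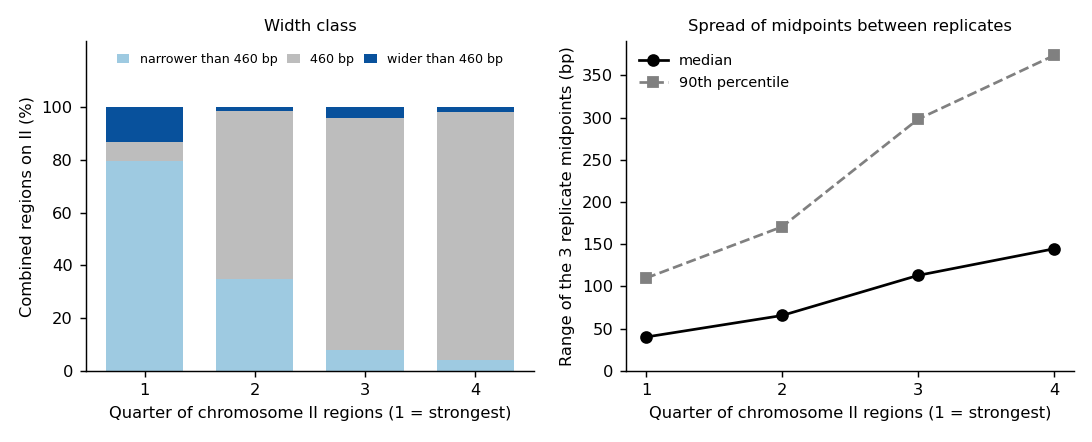
Chromosome II regions in 4 equal groups by combined place. The left panel gives the share narrower than, equal to and wider than 460 bp, and the right panel the median and 90th percentile of the range of the 3 replicate midpoints in bp. The narrower share falls from 79.7 to 4.14% while the median range goes from 40 to 144.5 bp.

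Of the 1258 regions, 1208 were met by all 3 replicate lists. That is 96.0% (95% Wilson interval 94.8 to 97.0%), against 96.3% of the whole list. A further 48 were met by 2 replicates, 2 by 1 and 0 by none. Because the combined list was made from these same replicates, a high share follows from its making and is no test of reproducibility. Replicate 3 had no region in 25 cases, replicate 2 in 17 and replicate 1 in 10. The 2 regions met by a single replicate count under both lists that lacked them. The exceptions were mostly weak, with a median place of 6666 against 4128.5 for regions in all lists. The strongest of them, from 11652755 to 11653016 (place 1601), from 10395429 to 10395638 (1603), from 4372295 to 4372754 (2222) and from 13828979 to 13829438 (2448), were missing from replicate 2. The next, from 11974496 to 11974715 (3458), was missing from replicate 1. The 2 regions met by a single replicate were from 11307237 to 11307696 (replicate 3) and from 11924166 to 11924625 (replicate 1), at combined places 8040 and 8304.

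In the other direction, 284 regions of replicate 1 on II were at place 3000 or better in each of the replicates, and 5 of them were not met by the combined list. That is 1.76%, against 1.34% over the whole series and 0.299% (I) to 3.49% (V) on the other chromosomes. Beside the site from 10303759 to 10303969, at places 808, 804 and 566, these ran from 14383725 to 14383871, from 6741479 to 6741683, from 625943 to 626402 and from 5105033 to 5105492, with best places of 961, 1018, 1969 and 1089. The regions reached close to both ends of the chromosome's span, whose right end is itself the highest end coordinate over all lists. The first, from 18797 to 19151, stood at place 802 and at 1381, 680 and 502 in the replicates. The last, from 15265975 to 15266434, stood at place 4471 and at 2774, 12053 and 4214.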

How the data were processed

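The deposited lists of binding regions were used, 1 for each of 3 ChIP replicates and 1 that combines them. Per the file headers, coordinates are on WormBase build WS220. Per the file headers and source entries, the authors' regions were called with SPP via IDR. Aligner, thresholds and the making of the combined list: not given in the sources used here. The deposited score of each region has no stated unit and reaches a ceiling, so the number in the region's name was used as the authors' order. Depth is unknown.

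Analysis used Python 3.11.15 with numpy 2.4.6, pandas 2.3.3, scipy 1.17.1 and matplotlib 3.10.9, and the code was tested on simulated lists. Chromosome length was taken as the highest end coordinate over all lists. Mitochondrial regions were left out. Replicate values were compared by two-sided exact sign-flip permutation tests. Shares have 95% Wilson intervals, which cover counting error only. In gaps, only regions wholly inside were counted.

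Named regions followed a rule: the 10 first entries, the 5 densest windows of 50 kb, the 5 longest gaps, the 3 widest and 3 narrowest distinct intervals, the 5 strongest regions missing from a replicate, the 3 with the widest spread of places, and the first and last. Others named were chosen after their values were seen. Regions, rule and comparisons were chosen with earlier results of these data known. Sequences and genes were not analysed here, because no genome of this build was used.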

Additional observations from a re-analysis of the deposited data

How the results depend on the processing

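Of 85 recomputed values, 1 turned its sign and 17 moved, as given here. Tests over replicates were judged by direction alone and counts in the densest window by a factor of 1.5, so that the other 67 include values beyond the spread. The cause of the changes was not tested, except that a stricter choice of regions leaves fewer of them. Counting identical coordinates once and the replicate mean for left against right were chosen after seeing the data. The share of combined regions on II was 14.3 to 15.4% under its alternatives. The log2 density of II against the other chromosomes in the replicate lists was 0.020 and turned to -0.013 within as many first places as the combined list has entries, so it has no stable direction. The central share of II was 41.2% in the strongest 25%. The central 50% of the length held 62.2%, which is larger because the part is wider. Its density was 1.65 times that of the rest of II, against 1.66 times for the central of the 3 equal parts. Among regions of the outer parts, 30.4% were on the left, against 26.6% in the strongest 25% and 36.3% in the replicate mean. Regions met by all 3 replicates fell to 68.6% with reciprocal overlap of 50% and 88.7% with midpoints within 200 bp, and were 98.7% and 99.3% in the strongest 50% and 25%. With a replicate left out this was 96.7 to 97.9%. The rho of the order was 0.65 with the score, and 0.68 to 0.73 with a replicate left out. The median width was 370.0 bp in the strongest 50% and 301 bp in the strongest 25%. The densest window held 14 and 7 regions in these, 34 at a length of 100 kb and 28 with borders moved by 25 kb, and the longest gap was 872 kb in the strongest 25%. With a replicate left out, the log2 density was 0.016 to 0.022 and the log2 central ratio 0.41 to 0.51. The latter was 0.46 ± 0.10 (SD, n = 3) in the whole lists and 0.78 within as many first places as the combined list has entries, the same direction but more than 1.5 times the size. Leaving a replicate out of the combined list kept regions met by both others, which tests little. No paired analysis was possible because the labels number ChIP with input samples alone, and these were not analysed here; sign-flip tests compared chromosomes or parts within each ChIP replicate.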
